A study of Rattus norvegicus with 67 samples.

Results

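Sperm histone H3 retention was compared between 4 F3 generation rats with testis disease as their only disease (M29, M32, M33 and M41) and 17 F3 generation rats without disease, all males of the atrazine lineage. The 4 were chosen by their pathology label, and the 17 are the animals without disease in the same deposited table, out of 66 animals of the series with read counts. M59 and M68 carry the same label but are not in that table. The genome was cut into windows of 1000 bp, and the test covered the 2456475 windows whose mean over the 21 animals reached 10 reads. Outside a stretch of chromosome 1 from 75 to 78 Mb, 70 differential histone retention regions (DHRs) were called from windows with unadjusted p below 0.0001. Of these, 57 were lower and 13 were higher in testis disease. They held 71 such windows, where p-values spread evenly between 0 and 1 would give 245. The number of DHRs outside the stretch depended on the test, the filter and the animals. It was 321 (202 lower and 119 higher) by the edgeR exact test and 46 with a mean of at least 20 reads. It was 123 without the 4 no-disease animals tagged DMSO, 111 without M41 and 59 without M33. With 1 testis disease animal left out, 16 to 21 of the 70 were found again. One window, on chromosome 1, passed an adjusted p of 0.05 in the main test, though not with DESeq2, and it held no read in any of the 4 testis disease animals.

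During the last steps of spermatogenesis most histones are replaced by protamines, which pack the DNA of the sperm head tightly. A small part of the nucleosomes is kept, and chromatin immunoprecipitation with an antibody to histone H3, followed by sequencing (ChIP-Seq), shows where. A DHR is a site at which the amount of H3-bound DNA differs between groups. No sequencing library made without immunoprecipitation was analysed here, so fewer nucleosomes and fewer copies of the DNA at a window cannot be told apart.

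The founders were outbred Sprague Dawley females. During gestation days 8 to 14 they received atrazine, a herbicide, at 25 mg/kg each day into the abdominal cavity, and controls received the vehicle DMSO. The F3 animals are their great-grandoffspring, were not exposed themselves, and were dissected at about 1 year of age. The litter of each animal was not given. Testis disease was called on stained sections, by how many tubules had lost their normal structure or their sperm. The treatment tag of the labels reads Atrazine for M29, M32, M33 and M41 and for 13 of the 17 animals without disease, while M62, M65, M67 and M69 carry the tag DMSO although they are labelled as atrazine lineage. The 16 control lineage animals all carry the tag Atrazine, against their lineage label. Groups here follow the lineage and pathology labels, and these tags leave a doubt about what separates the lineages. Of the 38 DHRs outside the stretch chosen for naming, 5 no longer had p below 0.0001 without the 4 animals tagged DMSO, with p from 0.000102 to 0.000221. They were those at Snx6, at Stk26 and Frmd7, and at chr19:272001-278000, chrX:78469001-78470000 and chr8:68351001-68352000. The label of each sample is sperm, and reads on the X chromosome stood at 0.489 to 0.556 of the autosomal mean in the 4 testis disease libraries.

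The 4 testis disease libraries held 39464585 to 76754253 reads in windows, and the 17 libraries without disease held 22211333 to 80885350 (median 57704749). A typical window had 0.38 RPM (reads per 1e6 scaled reads) in the animals without disease, so a single window rested on few reads. Scaled reads are the library total multiplied by its TMM factor (trimmed mean of M values, edgeR). An RPM of 0.0385 to 0.0756 corresponded to 3 reads in the testis disease animals.

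With edgeR's quasi-likelihood test, 131 windows had p below 0.0001 (0.00533% of those tested), 60 of them inside the chromosome 1 stretch, which holds 2339 tested windows. Outside it, 71 windows passed, where p-values spread evenly between 0 and 1 would give 245. The share of windows with p below 0.05 was 3.66%. After Benjamini-Hochberg adjustment 1 window remained below 0.05. Just inside the unadjusted p of 0.0001 lay chr1:76504001-76505000 (log2 fold change 0.83, p = 9.964e-05), and just outside it chr19:17301001-17302000 (log2 fold change -1.17, p = 0.0001009). The 131 windows formed 104 DHRs when neighbouring windows with p below 0.1 were joined, 34 of them inside the stretch and all 34 higher in testis disease.

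The only window past the adjusted p was chr1:92251001-92252000 (Rnor_6.0), in the DHR chr1:92251001-92253000. The window had 0 reads in M29, 0 in M32, 0 in M33 and 0 in M41. In the 17 animals without disease it had a lowest value of 0, a median of 0.213 and a highest value of 0.50 RPM (mean 0.22 ± 0.128, SD, n = 17), or up to 34 reads. The groups overlapped, since M39 and M40, both without disease, also had 0 reads there. Taking 3 reads over the 4 testis disease libraries as the floor (0.0124 RPM), the level in testis disease was lower than their mean by a factor of at least 17.8. The adjusted p was 0.00102 (edgeR quasi-likelihood test), and the fitted log2 fold change of -6.70 depends on the prior count. The adjusted p was 0.437 with DESeq2 and 1 with robust empirical Bayes in edgeR. It was also above 0.05 without M29, without M32 and without M41. Of 2456475 tested windows this was the only one with 0 reads in all 4 testis disease animals (4.07e-05%). Its mean over the 21 animals was 10.4 reads, just above the filter. With no read in the 4, it passed the filter only through the animals without disease. Without the filter, 9009 windows were at 0 in all 4, so being the only one among tested windows is a description.

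The lack of reads covered about 2 kb. The preceding window, chr1:92250001-92251000, was also at 0 in all 4 testis disease animals and was not tested because its mean was 9.9 reads. The following window, chr1:92252001-92253000, held 3 reads in M29, M32 and M33 and 4 in M41. In the 10 windows that flank these 3, the testis disease animals had on average 12.3 to 33 reads per window, and the animals without disease had 7.7 to 38.6. At the flanks the testis disease animals thus lay within the range of the animals without disease.

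**Figure D1:**
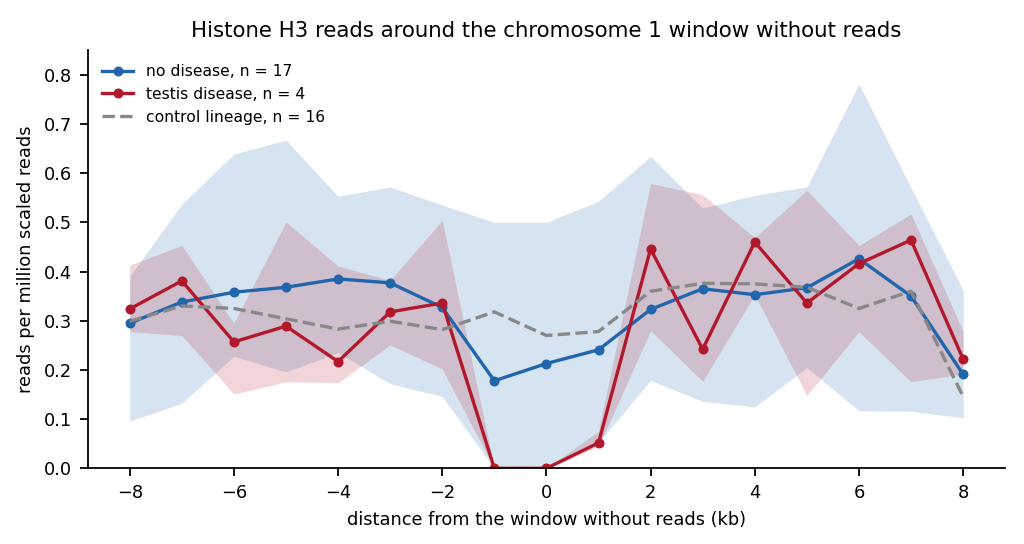
Histone H3 RPM (y axis) by distance in kb from the chromosome 1 window without reads (x axis). Points are group medians, shaded bands run from the lowest to the highest animal of the testis disease group (n = 4) and of the group without disease (n = 17), and the dashed line is the control lineage median (n = 16). The testis disease band falls to 0 at -1 and 0 kb, where the band of the animals without disease also starts at 0. At the other distances shown the bands overlap.

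The absence of reads was found in animals of other labels too. Both windows were at 0 in 4 of 4 testis disease animals, in 2 of 17 animals without disease (M39 and M40), in 1 of 5 animals with multiple disease including testis disease (M26), in 1 of 3 with kidney disease (M23) and in 1 of 5 lean animals (M28). They were at 0 in none of 16 control lineage animals, none of 8 animals with multiple disease without testis disease, and none of 5 with late puberty. Close to that state were M35 (late puberty), with 1 read over the 3 windows, and M63 (multiple disease without testis disease), with 0 reads in the second window and 6 in the first. Among the 15 other animals without disease the level at these 2 windows ran from 28.5% to 136% of the animal's own flanks. The control lineage animals stood between 18% and 126% of their flanks, with a median of 76.9%. The 4 testis disease animals thus shared the state at 0 with 5 other animals labelled as atrazine lineage.

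The 57 decreased DHRs lay on 20 chromosomes and were short. Of the 70 DHRs outside the stretch, 45 were a single window of 1000 bp, the longest was 6000 bp, and 69 held a single window with p below 0.0001. The DHRs inside the stretch had a median length of 5000 bp and reached 28000 bp. Chromosome 4 held 8 of the decreased DHRs, with 6.86% of the windows tested outside the stretch. Chromosomes 1, 3 and 8 held 6 each, with 10.2%, 6.64% and 4.95% of the windows, and chromosome 20 held 4 with 2.07%. The median log2 fold change of the 57 was -1.22 (from -6.70 to -0.85), against -0.01 over all windows tested. Since p in these animals chose the DHRs, these sizes are a description without a test.

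**Figure D2:**
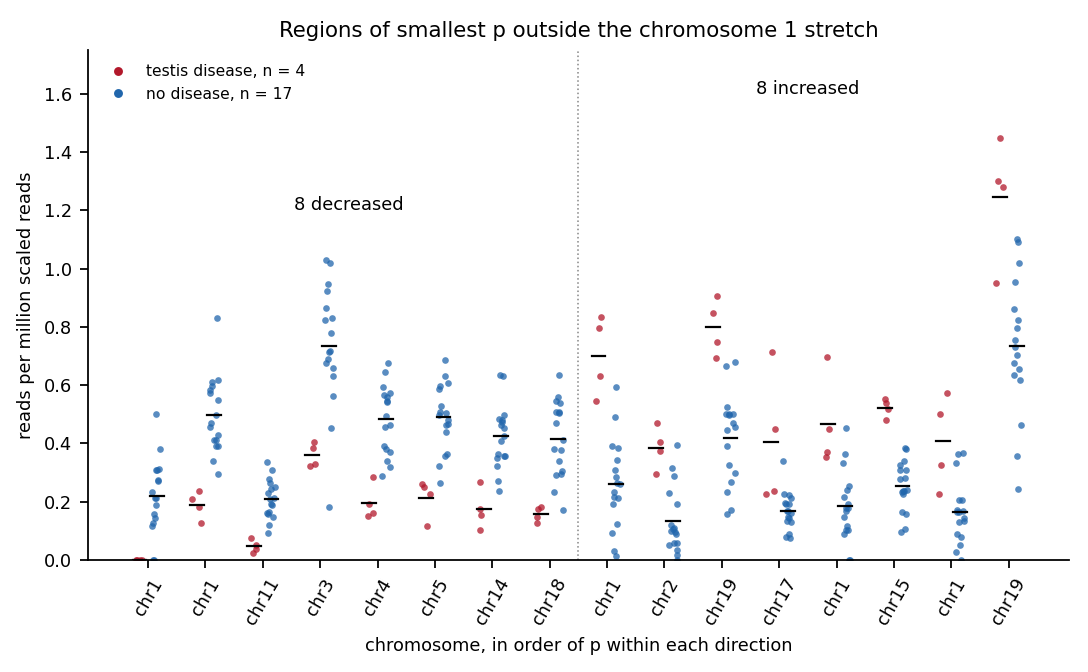
RPM (y axis) at the window of smallest p of the 8 decreased and 8 increased DHRs of smallest p outside the chromosome 1 stretch, ordered by p (x axis, named by chromosome). Each point is 1 animal, red for testis disease (n = 4) and blue for no disease (n = 17), and black bars are means. The groups do not touch at 4 of the decreased and 2 of the increased regions.

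Next after the window without reads, the decreased DHR of smallest p was chr1:243936001-243939000. Its levels were 0.209 RPM in M29, 0.236 in M32, 0.126 in M33 and 0.18 in M41, against 0.294 to 0.832 without disease (median 0.471). All 4 testis disease animals were below all 17 others (log2 fold change -1.35 ± 0.26, SE, unadjusted p = 1.16e-06, adjusted p = 0.952 by edgeR's quasi-likelihood test). Of all windows tested, 0.0211% had groups that did not overlap, and 0.00997% had all 4 testis disease animals below all others. That share is read beside 21 of the 57 decreased DHRs without overlap, a count which the choice by p largely fixes.

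At chr11:27605001-27606000 the levels were low, with 0.0521 RPM in M29, 0.0738 in M32, 0.0252 in M33 and 0.0385 in M41. These were 1 to 5 reads per animal, so this window too passed the filter mainly through the animals without disease. The animals without disease had 0.0905 to 0.337 RPM (median 0.21), all above the testis disease animals (log2 fold change -2.07 ± 0.43). At chr4:32446001-32447000 the 4 animals had 0.191, 0.162, 0.151 and 0.283 RPM in the order M29, M32, M33 and M41. The lowest of the 17 was 0.289 RPM and the median 0.494, so the gap between the groups was smaller than the spread within them.

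At chr3:16755001-16758000 the animals with testis disease stood close together, at 0.33, 0.384, 0.403 and 0.321 RPM. The animals without disease spread from 0.182 to 1.03 (median 0.718), and 1 of them was below all 4 while 16 were above. At chr14:78356001-78357000 the levels were 0.104, 0.266, 0.176 and 0.154 RPM, against 0.238 to 0.636 (median 0.426), and M32 overlapped the animals without disease. For these 2 DHRs the log2 fold changes were -1.06 ± 0.22 and -1.29 ± 0.28. The remaining 2 of the 8 lie at listed genes and are given with those.

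The 13 increased DHRs had a median log2 fold change of 1.05 (0.76 to 1.59). Windows with p below 0.0001 made up 0.00236% of those tested outside the stretch in the decreased direction and 0.00053% in the increased direction. Over all windows tested 51.8% had a negative log2 fold change. In the animals without disease the median level of the increased windows was 0.253 RPM and that of the decreased windows 0.433 RPM. The choice of the windows by p in these same animals largely fixes this contrast. In the window before it was 0.342 and 0.382 RPM, and in the window after 0.372 and 0.387 RPM. Of the 13 increased DHRs, 3 had groups that did not overlap, a count which the choice by p largely fixes. The share over all windows was 0.0111% for all 4 above all 17.

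The increased DHR of smallest p was chr1:66072001-66075000, with 0.834 RPM in M29, 0.546 in M32, 0.63 in M33 and 0.796 in M41. The animals without disease had 0.0142 to 0.595 RPM (median 0.262), and 16 of the 17 were below all 4 (log2 fold change 1.43 ± 0.27, adjusted p = 0.64 by edgeR). Of the 8 increased DHRs of smallest p, 5 no longer had p below 0.0001 by DESeq2 or by the edgeR exact test. These were this one (unadjusted p = 0.00329 by DESeq2 and 0.000138 by the exact test) and those at chr2:202656001, chr1:79156001, chr1:66711001 and chr19:272001, with DESeq2 p from 0.000777 to 0.0149. At chr2:202656001-202659000 the 4 animals had 0.469, 0.295, 0.403 and 0.372 RPM, and 15 of the 17, whose median was 0.0993, were below all 4. M29 was the highest of the 4 animals at both.

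On chromosome 19 the DHR chr19:27967001-27968000 had 0.747, 0.694, 0.907 and 0.848 RPM in M29, M32, M33 and M41, above all 17 animals without disease (0.158 to 0.679). The region chr19:272001-278000 was the longest outside the stretch, and 3 of its 4 testis disease animals (1.30, 1.45 and 1.28 RPM) were above all 17 animals without disease, while M41 (0.95 RPM) was not. At chr15:6632001-6633000 the 4 animals were between 0.479 and 0.552 RPM and the others between 0.0943 and 0.385 (log2 fold change 1.04 ± 0.24). Of the 8 increased DHRs this had the smallest SD among the testis disease animals, 0.0322 RPM.

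At chr17:57900001-57904000 M29 stood at 0.713 RPM and M41 at 0.449, while M32 (0.236) and M33 (0.227) were within the range without disease (0.0734 to 0.339). The last 2 of the 8, chr1:79156001-79158000 and chr1:66711001-66715000, also had M29 highest, at 0.695 and 0.574 RPM. The animals without disease reached 0.452 and 0.368 RPM there and had medians of 0.178 and 0.163. Over the 13 increased windows M29 was above all 17 animals at 12, M33 at 9, and M32 and M41 at 7 each. Over the 57 decreased windows the 4 animals were below all 17 at 39 (M29), 41 (M32), 41 (M33) and 36 (M41). The choice of the windows by p in these same animals largely fixes these counts, and the share over all windows tested was not counted for single animals.

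**Figure D3:**
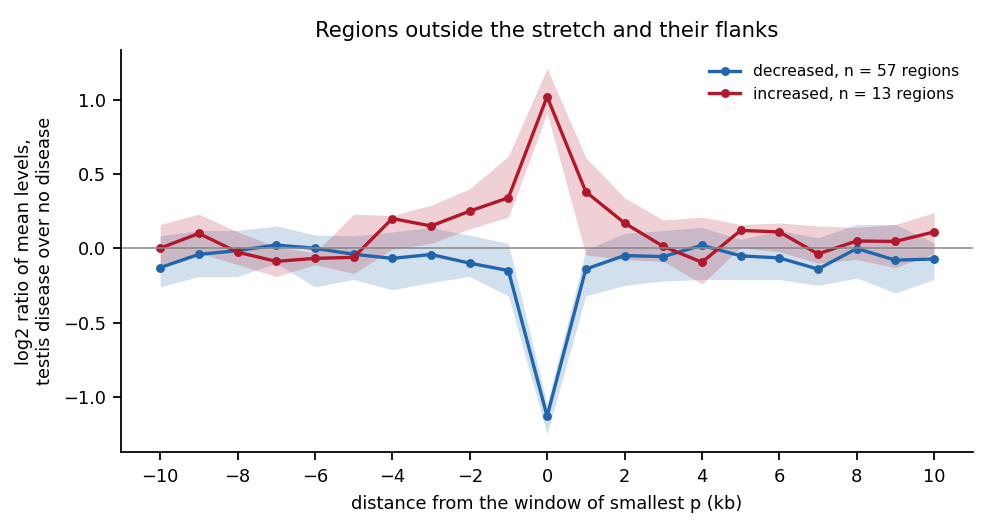
Median log2 ratio of mean levels, testis disease (n = 4) over no disease (n = 17), on the y axis by distance in kb from the window of smallest p on the x axis, with the middle 50% of regions shaded. Only tested windows enter, for up to 57 decreased and 13 increased regions outside the stretch, and in the decreased regions the median ratio lies between -0.14 and 0.022 from 2 kb outward.

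The difference was smaller beside the chosen window, and choosing the window of smallest p favours such a peak. At the central window, which chose the region, the median log2 ratio was -1.13 over the 57 decreased regions. In the window before and the window after it the median was -0.15 and -0.14. Around the 13 increased regions the median log2 ratio fell from 1.02 at the centre to 0.34 one window before and 0.38 one window after, over 11 and 8 tested windows. The neighbouring windows were read partly by the rule that joins windows, so these values are a description.

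The study's own annotation lists a gene for part of its regions. Of the 70 DHRs, 53 overlapped a region of that annotation, and 19 of them had a gene whose symbol is also in RefSeq. Whether a DHR lies in an exon, an intron or beside the gene was not analysed here. The 12 DHRs with a gene and the smallest p were all lower in testis disease, and so were 5 of the other 7. Of all 70 DHRs outside the stretch, 57 (81.4%) were lower.

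At chr18:52953001-52954000, listed with Slc12a2, the 4 animals had 0.174 RPM in M29, 0.148 in M32, 0.126 in M33 and 0.18 in M41. Slc12a2 encodes a sodium, potassium and chloride cotransporter that epithelia use to secrete fluid. The animals without disease had 0.172 to 0.634 RPM (median 0.41), of which 16 were above all 4, and the log2 fold change was -1.35 ± 0.29 (adjusted p = 1 by edgeR, as for the other 11). At chr5:7135001-7136000, listed with RGD1564053, the levels were 0.261, 0.251, 0.227 and 0.116 RPM, below all 17 others (0.265 to 0.686).

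The DHR chr11:71981001-71982000, listed with Pak2, was among the lowest of the 12. Pak2 is a kinase activated by the small GTPases Rac and Cdc42. It had 0.0869 RPM in M29, 0.0295 in M32, 0 in M33 and 0.0771 in M41, and up to 6 reads. All 17 animals without disease were higher, at 0.0963 to 0.358 RPM (median 0.206, log2 fold change -1.92 ± 0.43).

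At chr12:11340001-11341000, listed with Kpna7, an importin alpha that carries proteins into the nucleus, the 4 animals had 0.139, 0.207, 0.101 and 0.141 RPM. The 17 others spread from 0.136 to 0.866 RPM and 15 were above all 4.

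Among 7 others of the 12, all 17 animals without disease were above all 4 at the DHRs of Syde1 and Ilvbl (chr7:14051001-14052000), Ext2 (chr3:82644001-82646000), Kcnip1 (chr10:18726001-18728000) and Snx6 (chr6:75649001-75651000). Ext2 is an enzyme of heparan sulfate synthesis, Kcnip1 a partner of potassium channels and Snx6 a sorting nexin of the retromer. Their log2 fold changes were -1.29, -1.09, -1.11 and -1.07. The groups overlapped at the DHRs of Slc37a3 and Rab19 (chr4:67164001-67165000, log2 fold change -1.24), of the kainate receptor subunit Grik4 (chr8:46870001-46871000, -1.12) and of Stk26 and Frmd7 (chrX:138098001-138099000, -1.83). At the last of these the levels ran from 0 RPM in M33 to 0.118 RPM in M32, or 0 to 8 reads.

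The other 7 DHRs with a listed gene were decreased at Dctn1, Frmd6, Amph, Zfp622 and Arhgap20, and increased at Gcdh, Klf1 and Dnase2 (1 DHR with 3 genes) and at Nars2. The size there ran from -1.63 at Zfp622 to 1.05 at Nars2 on the log2 scale.

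Inside the chromosome 1 stretch the DHR of smallest p was chr1:76952001-76963000, with 1.01, 0.738, 0.554 and 0.758 RPM in M29, M32, M33 and M41 against 0.0284 to 0.578 without disease (log2 fold change 1.23 ± 0.24, adjusted p = 0.952 by edgeR, unadjusted p = 0.00316 by DESeq2). Summed over the 60 seed windows of the stretch, the 4 animals were at 52.6 to 55.5 RPM and the 17 at 8.57 to 46.9 (median 29.3). The choice of these windows by p in the same animals largely fixes the gap between the ranges. Of the animals outside this comparison, M37 (multiple disease including testis disease) was within the range of the 4, at 53.7 RPM. The others of its group were at 12.7 (M21), 23.5 (M48), 45.9 (M26) and 49.3 (M52). The 8 animals with multiple disease without testis disease were at 24.8 to 51.7 (median 33.4). M35 (late puberty) was at 52.3, where the median of its group was 30.2, and the 3 kidney disease animals were at 44.7 to 51.8.

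Of the 13 increased DHRs outside the stretch, 4 lie on chromosome 1 too. In the 44 animals that were not in the testis comparison, leaving out M48, the median level at these 4 windows followed the level in the stretch (Pearson's r = 0.82, permutation p = 1e-05, the smallest that 100000 permutations give, Spearman's rho = 0.78, p = 1e-05). Without M17 and M21, the 2 animals farthest from the median, r was 0.75. Within the control lineage r was 0.82 (n = 16) and within multiple disease without testis disease 0.89 (n = 8). Taken singly, r was 0.68 at chr1:66072001-66075000 (0.34 within multiple disease without testis disease), 0.85 at chr1:66711001-66715000 and 0.67 at chr1:79156001-79158000, and 0.067 at chr1:161943001-161945000. For the 9 increased windows on other chromosomes r was 0.12 (permutation p = 0.45), with 0.37 within the control lineage and -0.67 within multiple disease without testis disease, and for the 57 decreased windows -0.25 (permutation p = 0.096). These are 7 relations, and the adjusted p of the first was 1.8e-05. At 3 of the 13 increased DHRs the level thus varied together with the stretch in animals that did not have testis disease alone.

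**Figure D4:**
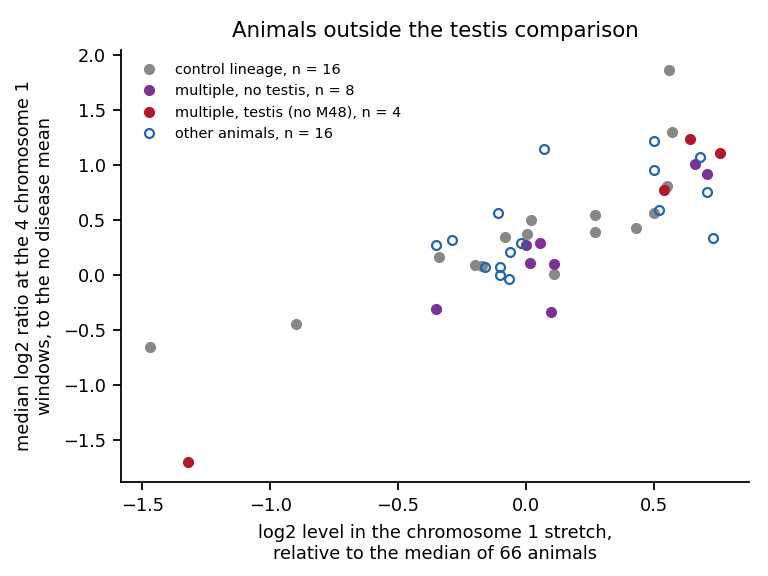
Median log2 ratio of each animal to the mean without disease at the 4 increased chromosome 1 windows outside the stretch (y axis) by its log2 level in the stretch relative to the median of 66 animals (x axis). Each point is 1 of 44 animals outside the testis comparison without M48, by group, and the points rise together (r = 0.82).

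Whether the direction recurred was examined in 5 atrazine lineage animals whose multiple disease tag includes testis disease (M21, M26, M37, M48 and M52). The library of M48 stood apart, with 541868 windows without a read, a median of 3 reads per autosomal window and a mean of 7.516, so the counts and medians are given with and without it. The other 4 libraries held 42080909 to 90569227 reads. Against 8 animals with multiple disease without testis disease, which share no animal with the first comparison, 64 of the 70 DHR windows could be tested. Of these 8, M57, M58, M61 and M63 carry the tag DMSO, and all 5 animals with testis disease carry the tag Atrazine.

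Among the 53 decreased windows tested, 17 were lower and 36 higher in the animals with testis disease, with a median log2 difference of 0.26, and over all windows tested 48.9% were lower and 51.1% higher. Without M48, 23 were lower and 30 higher, with a median of 0.061 (from -0.68 to 0.83). Over all windows tested without M48, 50.6% were lower and the median was -0.0041. None of the decreased windows was lower at p below 0.05, with or without M48, where 1.49% (with) and 2% (without) of all windows were. None passed an adjusted p of 0.05 (edgeR's quasi-likelihood test), which 0% of all windows did with M48 and 4.13e-05% without it.

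Without M48, 10 of the 11 increased windows tested were higher in the animals with testis disease, with a median log2 difference of 0.18, and over all windows 49.4% were higher. With M48 it was 8 of 11, with a median of 0.10. Only chrX:78469001-78470000 had p below 0.05 in this direction, without M48 (log2 difference 0.76, p = 0.0377), and 1.76% of all windows did. In the 4 testis disease animals it stood at 0.295 to 0.417 RPM, above all 17 animals without disease (0.0377 to 0.274). The choice of this window by p in these animals largely fixes that gap, and its unadjusted p there was 0.000154 by DESeq2. Among the animals with multiple disease without testis disease, M57 was at 0 RPM and the others at 0.127 to 0.234.

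With M48 included, 13 of the 53 decreased windows were higher in the animals with testis disease at p below 0.05 (6.15% of all windows were). They were the windows of Pak2, of Syde1 and Ilvbl and of Dctn1, and those at chr19:45941001-45942000, chr20:10074001-10075000, chr20:10955001-10956000, chr3:2658001-2660000, chr10:99324001-99325000, chr1:154119001-154120000, chr8:128027001-128028000, chr8:47829001-47831000, chr4:120860001-120861000 and chr8:68351001-68352000. M48 stood at 0.803 to 9.71 RPM in these 13 windows. When the 4 animals tagged DMSO were left out and M48 was kept, 67 DHR windows were tested. Of these, 5 had p below 0.05 against the direction of the first comparison and 1 in its direction. The share over all windows was not counted for this fit. Without M48 and with the animals tagged DMSO kept, the Pak2 window remained (log2 difference 0.83, p = 0.0189 by edgeR's quasi-likelihood test, 1.76% of all windows). There M21, M26, M37 and M52 had 0.326, 0.356, 0.355 and 0.228 RPM. In a direct comparison the Pak2 window was lower in testis disease alone than in the 5 animals (log2 difference -2.73 ± 0.54, unadjusted p = 0.000131, adjusted p = 1 by edgeR's quasi-likelihood test). Without M48 it was -2.50 ± 0.49 (unadjusted p = 1.53e-06, adjusted p = 0.946 by the same test). The choice of this window by p in the animals with testis disease alone largely fixes the direction of this difference, so it is a description.

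Set against the same 17 animals without disease, which also entered the first comparison, the 5 animals gave a median log2 difference of -0.036 over the 57 decreased windows and 0.36 over the 10 increased windows tested, with 30 of 57 lower and 9 of 10 higher. Without M48 these were -0.25 and 0.47, with 47 of 57 lower and 10 of 10 higher. Over all windows tested 48% were lower and 52% higher with M48, and 51.4% lower and 48.6% higher without it. Since both comparisons share their reference animals, the direction here is not an independent count. Animals that played no part in choosing the windows are given beside it. Relative to the mean of the 17, the median log2 ratio over the decreased windows was -0.34 to -0.13 in the 4 animals without M48 and 0.75 in M48. It was -0.43 to -0.061 in the 8 animals with multiple disease without testis disease, -0.30 and -0.25 in M59 and M68 (no disease, tagged DMSO, not in the testis comparison) and -0.36 to 0.055 in the 16 control lineage animals. It was -0.19 to -0.14 in 3 animals with kidney disease, -0.30 to -0.12 in 5 with late puberty, and -0.33 to 0.35 in 5 lean animals, where M28 (0.35) and M42 (0.13) were above 0. The 4 testis disease animals that chose the windows were at -1.39 to -1.01.

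**Figure D5:**
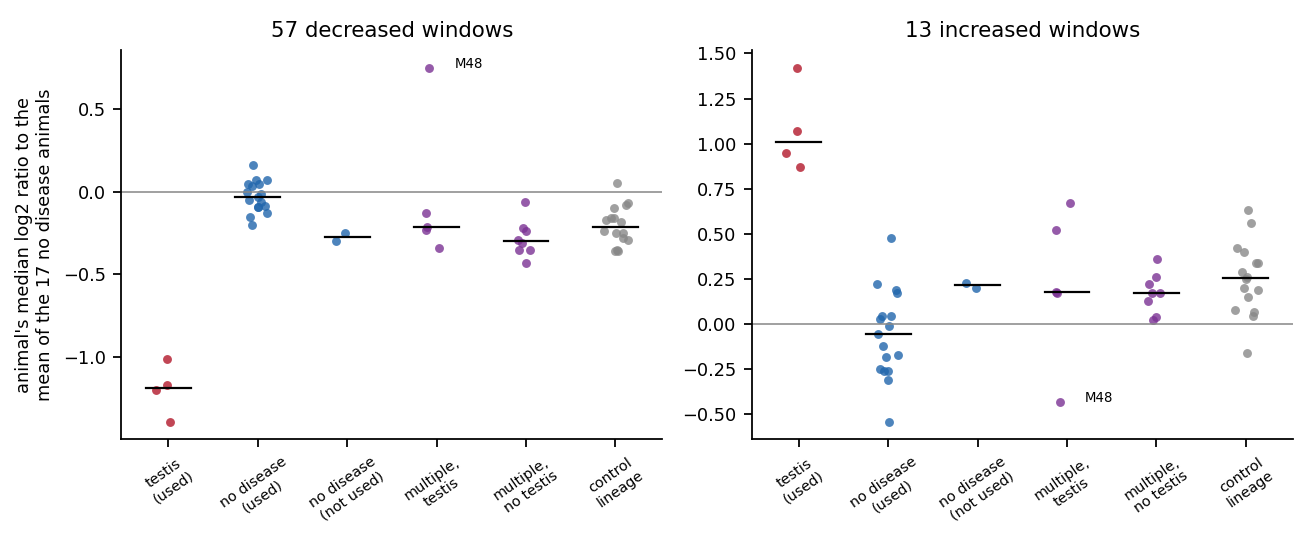
Each animal's median log2 ratio to the mean of the 17 animals without disease (y axis) over the 57 decreased windows on the left and the 13 increased windows on the right, by group (x axis), with black bars at group medians. Groups marked used chose the windows. Leaving out M48, the animals of the 4 groups shown that were not used stand between -0.43 and 0.055 over the decreased windows. Animals with kidney disease or late puberty and lean animals are not shown.

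Over the 13 increased windows the testis disease animals were at 0.87 to 1.42. The 5 animals with testis disease among multiple diseases were at -0.43 (M48), 0.17, 0.18, 0.52 (M52) and 0.67 (M37). The 8 others with multiple disease were at 0.025 to 0.36, M59 and M68 at 0.23 and 0.20, and the control lineage at -0.16 to 0.63. The kidney disease animals were at 0.13 to 0.56, those with late puberty at -0.12 to 0.47 and the lean animals at -0.31 to 0.29. M37 and M52 were above the 8 animals with multiple disease without testis disease, and so were M60 and M23 (kidney disease), M51 (late puberty) and M3, M4, M5 and M13 of the control lineage.

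Compared directly, 4 animals with testis disease alone and 5 with testis disease among multiple diseases differed at none of the 62 DHR windows tested after adjustment (edgeR's quasi-likelihood test), and 37 had p below 0.05 (53 without M48). All 62 differences had the sign of the first comparison, which the choice of the windows in the same 4 animals largely fixes. In this comparison 3.47% of all windows had p below 0.05, and 4.19% without M48. After adjustment it was 0% and 8.11e-05%. Over all windows 52.5% were lower and 47.5% higher in testis disease alone, and 50.2% and 49.8% without M48. At the window without reads no test could be made, because its mean was below 10 reads. There M26 was at 0 and M21, M37, M48 and M52 had 0.14, 0.118, 0.482 and 0.271 RPM.

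Leaving out each testis disease animal in turn, 3 of the 68 DHR windows tested in all 4 fits kept p below 0.0001 each time. All 68 kept their direction and p below 0.05, which the choice of the windows by p in the same animals largely fixes. Of the 70 DHRs outside the stretch, 16 to 21 were found again by the region rule with 3 testis disease animals. These fits gave 59 to 111 DHRs outside the stretch, against 70 with all 4 animals. On leaving out 1 animal the log2 fold change ran from -1.47 to -1.24 at chr1:243936001-243939000 and from 0.89 to 1.01 at chr19:27967001-27968000. It ran from -2.11 to -1.06 at chr20:10955001-10956000, from -2.55 to -1.56 at chrX:138098001-138099000 and from 0.88 to 1.48 at chr17:57900001-57904000. The adjusted p of the window without reads was 0.0649 without M29, 0.109 without M32, 0.0259 without M33 and 0.169 without M41. Without the 4 animals tagged DMSO, 123 DHRs lay outside the stretch and 50 of the 70 were found again.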

How the data were processed

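Sperm of F3 generation males was examined by histone H3 ChIP-Seq. The labels and count columns name 1 animal per library and n follows them, although the methods also describe adding sperm of several individuals together. The authors trimmed reads with Trimmomatic, aligned them with Bowtie2 to Rnor_6.0, and used MEDIPS to count them by 1000-bp window. The deposited values are raw read counts per window and animal for 2782040 windows, and 298 further columns of counts or RPKM in the deposited tables were not used. The labels name a pan-H3 antibody, while the methods also name H3K27me3.

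Counts were tested with edgeR 4.0.16 in R 4.3.3 (TMM, quasi-likelihood test, Benjamini-Hochberg adjustment) where the mean count of a window reached 10 reads. The dispersion trend was estimated on 200000 windows. The script was tested on simulated data. A window with p below 0.0001 seeded a DHR, and neighbours up to 1000 bp away joined it if their p was below 0.1. Each DHR is described by its window of smallest p. For levels of single animals, TMM factors over all 66 animals gave 1 scale, and log2 ratios of levels used a pseudocount of 0.02 RPM. The 66 libraries included no pair with identical values. Where nothing names separate litters, p-values measure the spread between these animals.

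Named were the 8 decreased and the 8 increased DHRs of smallest p, windows past an adjusted p of 0.05 or without reads in all 4 animals, the DHR of smallest p in the stretch, the 12 of smallest p with a listed gene (1 of them is not reported here), and those with p below 0.05 in the comparison of the 2 kinds of multiple disease. The other 7 DHRs with a gene and the X chromosome windows were chosen after their values were seen. The members, lists and tests were chosen with earlier results of these data known. A list of testis genes was to be counted, but no annotation of Rnor_6.0 was used here, so it was not run and no sequence is printed. Alternatives were the edgeR exact test, DESeq2 1.42.0, DESeq2 size factors, other filters, robust empirical Bayes, all 19 animals without disease, leaving out tagged animals, and leaving out each of the 4 testis disease animals and each of the 5 with testis disease among multiple diseases.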

Additional observations from a re-analysis of the deposited data

Results flagged for a closer look

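In 116 groups of 4 to 8 animals at the named windows, the highest or lowest animal was compared with the range of its group, and 27 groups had 1 animal far from the rest. The critical value used is set to mark about 1 group in 20 by chance, a rate that was not checked on these windows. In 20 of the 27 that animal was M48, the library with 541868 windows without a read.

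In the group with testis disease among multiple diseases, M48 was lowest at chr1:243936001-243937000, with 0.0803 RPM. At 19 windows it was highest. On chromosome 1 it had 9.71 RPM at 154119001, and on chromosome 3 it had 3.21 at 16757001, 1.12 at 82645001 and 7.23 at 2658001. On chromosome 4 it had 4.98 RPM at 114887001 and 3.77 at 120860001, on chromosome 7 4.34 at 14051001, and on chromosome 8 1.45 at 46870001, 3.05 at 128027001, 2.49 at 47830001 and 1.53 at 68351001. On chromosomes 10, 11 and 12 it had 3.13 RPM at 99324001, 0.803 at 71981001 and 2.01 at 11340001. On chromosomes 14, 18 and 19 it had 1.45 RPM at 78356001, 2.41 at 52953001 and 5.54 at 45941001. On chromosome 20 it had 4.66 RPM at 10074001 and 4.50 at 10955001. The other 4 animals of the group reached at most 0.691 RPM at these windows, and the part of the M48 library in each result is given by the values without it.

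Among the 7 others, M63 had 0.822 RPM at the increased window chr1:66074001-66075000, where the other 7 animals with multiple disease without testis disease had 0.188 to 0.414. In that group M27 was highest at chr2:202656001-202657000 (0.484 RPM), M34 lowest at the Slc12a2 window (0.144), and M57 lowest at chr19:277001-278000 (0.364) and at chrX:78469001-78470000 (0). M52 was highest at the Snx6 window (0.478 RPM) in the group with testis disease among multiple diseases. Of the 4 testis disease animals, M33 stood apart at chr8:128027001-128028000, with 0.302 RPM against 0.148 to 0.167 in the others.

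At the Pak2 window, chr11:71981001-71982000, all 4 animals with testis disease alone were below the mean of the animals without disease and all 5 with testis disease among multiple diseases were above it. The choice of this window by p largely fixes the side of the 4 animals. The difference between these 2 groups had a log2 value of -2.73, and its test across all windows gave an adjusted p of 1 (edgeR's quasi-likelihood test).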

How the results depend on the processing

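The edgeR exact test gave 329 DHRs in place of 104 and 321 outside the stretch in place of 70, of which 202 were decreased (62.9% against 81.4%), and 8 inside it. DESeq2 gave 71 decreased and 24 increased DHRs outside the stretch (74.7%) and 9 inside it. A mean of at least 20 reads left 46 DHRs outside the stretch, and leaving out the 4 animals tagged DMSO gave 123. The single window past an adjusted p of 0.05 became 0 with DESeq2, with robust empirical Bayes and with a mean of at least 20 reads, which drops that window, 2 with all 19 animals without disease and 7 without the filter. Windows at 0 in all 4 animals numbered 9009 without the filter, 8602 of them with a mean below 1 read, and 0 with a mean of at least 20. Leaving out each testis disease animal gave 79 to 130 DHRs, 59 to 111 outside the stretch (111 without M41), 0 to 1 windows past the adjusted p, and 2 windows at 0 in each fit. The cause of these changes was not tested unless named.

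Of the 70 DHRs outside the stretch, 53 were found again by the exact test, 54 by DESeq2 and 70 with DESeq2 size factors. For the 39 named windows, 452 alternative values kept their direction, and 134 of them, 90 on leaving out an animal, no longer had p below 0.0001. The choice of these windows by p in the same animals largely fixes that direction. In the 2 kinds of multiple disease, 25 of 64 windows had the direction of the first comparison, 21 to 33 on leaving out each of the 5 animals with testis disease, 30 without the animals tagged DMSO and 22 with M19, whose diseases are not specified. Against the animals without disease it was 39 of 67, and 34 to 57 on leaving out each of the same 5. No paired analysis was possible because an animal belongs to 1 group only and its number pairs it with no other. Few reads per window limit what could be seen, since 1 read was 0.0128 to 0.0252 RPM in the testis disease animals.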

Other observations

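Windows below the filter of 10 reads held a further pattern on the X chromosome, seen when the filter was removed. From chrX:79462001 to 79469000, over 7 windows, M32 held 66 reads and M33 held 36, while M29 held 0 and M41 held 1. The other 62 animals held at most 7 reads there (M68), with a median of 1. In the windows at 79465001 and 79466001, M32 had 10 and 8 reads and M33 had 8 and 6, and none of the other 64 animals had a read. Per window, M32 had a mean of 9.43 reads in this block against 17.4 in its flanks, and M33 had 5.14 against 9.4. M29 and M41, with 14.6 and 19.7 reads per flanking window, had almost none in the block. Without the filter, 3 of these windows had an adjusted p below 0.05 in testis disease against no disease (edgeR's quasi-likelihood test), with 0.00369 at 79463001 and 79465001 and 0.0323 at 79466001. These windows were noticed through that fit and had a mean below 1 read over the 21 animals. They entered the fit only through reads of M32 and M33, the animals in which they are high. M29 and M41 were at 0 in these 3 windows, as were all 17 animals without disease. The adjusted p is thus a description and does not stand for the testis disease group.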
